A study of Mus musculus with 60 samples.

Results

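The repertoires of CD4 and CD8 donor T cells in the gut were set side by side in a mouse model of graft-versus-host disease (GVHD), in which donor T cells attack tissues of a transplant recipient. The libraries were chosen by their labels, all those from gut, which gave 24 of the 60 samples of the series: 6 CD4 and 6 CD8 libraries for the alpha chain of the T cell receptor (TCRA) and as many for the beta chain (TCRB). CD4 and CD8 libraries of the same donor genotype and replicate number were treated as a pair, which gave 6 pairs for each chain.

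All recipients were lethally irradiated WT BALB/c mice that received T cell-depleted bone marrow of WT C57BL/6 mice together with CD90.2+ T cells of C57BL/6 donors, and gut lymphocytes were taken on day 6 after the hematopoietic cell transplantation (HCT). The T cell donors were WT, STAT3ko (a floxed STAT3 deleted by a Cre that the CD4 promoter drives) or STAT3koPD-1ko (which also lack PD-1), with 2 pairs for each of the 3 groups of donors. The severity of GVHD in these recipients was not analysed here. CD4 promoter activity begins in thymocytes that give rise to both lineages, so the deletion is not limited to CD4 T cells. Each sample combined the lymphocytes of 3 recipients, and equal numbers of CD4 and CD8 cells carrying the donor molecule H-2Kb were sorted for RNA. The same labels give 24 liver libraries of day 6, and 3 spleen libraries per table taken before HCT, which were used here only to show where gut stood apart. The clonotype tables hold no Cd4 or Cd8 transcripts, so the sort could not be checked against markers.

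A T cell receptor is assembled in the thymus from V and J segments, and for the beta chain a D segment, with bases added or removed at the joints. The resulting loop, the complementarity determining region 3 (CDR3), contacts the peptide held by a molecule of the major histocompatibility complex (MHC). CD4 T cells recognise peptide on MHC class II and CD8 T cells on MHC class I, and selection in the thymus sorts receptors between the lineages accordingly. Superantigens, such as those encoded by the endogenous mammary tumour viruses of BALB/c mice, bind MHC class II and engage T cells through particular beta chain V segments largely regardless of the CDR3. In the older mouse nomenclature TRBV26 is Vβ3, TRBV12-1 and TRBV12-2 are Vβ5, TRBV16 is Vβ11 and TRBV15 is Vβ12, all of them described as targets of such superantigens.

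The deposited value of a clonotype, here defined by CDR3 amino acids, V segment and J segment, was the fraction it held of its library's reads. The depth behind them is unknown, and a fraction of reads is not a fraction of cells: more cells of a clonotype and more receptor RNA per cell cannot be told apart. The CD4 and CD8 tables were joined separately, and each keeps a clonotype only if 2 or more of its libraries hold it, so every level compared across the tables rests on separately made lists. The listed clonotypes held 90.8% to 97.0% of TCRA reads in gut libraries numbered 1 and 79.5% to 83.5% in those numbered 2. For TCRB they held 81.5% to 93.8% of reads in libraries numbered 1, but 47.8% to 58.0% in libraries numbered 2. Gut libraries listed between 6748 and 27874 CD4 TCRA clonotypes, and between 10581 and 23961 in CD8. For TCRB the counts ran from 3418 to 29839 in CD4 and from 8391 to 27168 in CD8. Usage was expressed as a percentage of the listed reads, and V or J segments whose mean usage reached 0.5% were tested with limma on log2(percent + 0.1) with the pair as a block. A positive log2 difference means higher usage in CD4 throughout, and on this scale the difference of a rare segment is understated. Adjusted p-values are by the Benjamini-Hochberg method over all segments tested in the chain.

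The most frequent clonotypes of V segments that differed between the lineages are shown as examples of these segments, and they were chosen after their values were seen. Each is printed 5′ to 3′ as the representative nucleotide CDR3 of the deposited table. Capitals mark the bases between the end of the V segment and the start of the J segment, except for TRBV26, where they mark the CDR3 from the inner cysteine codon onward.
TRBV26 TRBJ2-7 (CD4): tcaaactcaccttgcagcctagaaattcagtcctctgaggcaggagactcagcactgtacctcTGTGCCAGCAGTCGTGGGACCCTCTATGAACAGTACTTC
TRBV23 TRBJ1-4 (CD4): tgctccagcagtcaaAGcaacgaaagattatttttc
TRBV29 TRBJ2-7 (CD8): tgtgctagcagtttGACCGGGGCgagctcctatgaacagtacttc
TRAV14N-3 TRAJ7 (CD4): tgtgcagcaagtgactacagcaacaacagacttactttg
TRAV16N TRAJ22 (CD8): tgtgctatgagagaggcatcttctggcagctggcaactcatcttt
The TRBV26 sequence spans 102 bases where the other 4 span 36 to 45, because the deposited CDR3 of this segment starts upstream of the conserved cysteine. The TRBV26 clonotype was listed in 1 CD4 gut library, at 0.547% of reads, and in no CD8 library. The TRBV23 clonotype was listed in 2 of the 6 CD4 gut libraries, at up to 0.436%, and in no CD8 library. The TRBV29 clonotype was listed in 5 CD8 gut libraries, with a median over all 6 of 0.000815% and a highest value of 0.556%, and in 2 CD4 libraries, at up to 0.0318%. The TRAV14N-3 clonotype, which has no base between V and J, was listed in all 6 CD4 gut libraries at 0.210% to 0.443% of reads and was not listed in CD8. The TRAV16N clonotype, which has none either, held 0.165% to 0.462% of reads in the 6 CD8 gut libraries and at most 0.0183% in CD4.

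TCRB V usage separated the lineages most sharply. CD4 T cells in gut used TRBV26 and TRBV23 far more than CD8 T cells, whereas CD8 T cells used TRBV29, TRBV12-1, TRBV12-2, TRBV17 and TRBV14 more. Of 21 TCRB V segments tested, 18 passed the test (85.7%), 10 of them higher in CD4 and 8 higher in CD8, with a median log2 difference of 0.11 over all 21. As percentages of all reads rather than of listed reads, 16 of 19 passed, 7 higher in CD4 and 9 higher in CD8, and the median was -0.20. With TRBV26, TRBV23 and TRBV29 left out of the total, 16 of 18 passed, 9 higher in CD4 and 7 higher in CD8, and the median was 0.35. The usage of 14 of the 21 segments did not overlap between the 6 CD4 and the 6 CD8 libraries.

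TRBV26 lies on chromosome 6 at chr6:41227505-41227993 (+ strand) of mm10, by the GENCODE annotation. It held 22.6% to 28.0% of listed reads in the CD4 gut libraries, with a median of 25.6%, and 0.840% to 2.01% in the CD8 libraries, with a median of 1.43%. Every CD4 library stood far above every CD8 library, by 4.14 on the log2 scale (SE 0.16, limma adjusted p 1.02e-46, 6 of 6 pairs). TRBV23 (chr6:41216073-41216526, + strand) ranged from 8.33% to 13.7% in CD4, with a median of 10.2%, and from 0.0479% to 0.555% in CD8, with a median of 0.369%. The difference of 4.84 (SE 0.16, limma adjusted p 9.51e-53) was the largest of the TCRB V segments tested, and again the groups did not overlap. The spread was pooled over the TCRB V segments in this fit, so the SE of 0.16 is common to them.

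TRBV29 (chr6:41271394-41271881, + strand) gave the largest difference toward CD8. Its usage ran from 18.4% to 21.2% in CD8, with a median of 18.9%, and from 0.907% to 2.24% in CD4, with a median of 1.78%, without overlap (log2 difference -3.56, limma adjusted p 4.89e-41). TRBV12-1 averaged 1.49% ± 0.235 (SD, n = 6) in CD4 and 6.64% ± 0.359 in CD8, a log2 difference of -2.10. TRBV12-2 averaged 2.01% ± 0.316 in CD4 and 7.44% ± 1.08 in CD8 (log2 difference -1.84). TRBV17 and TRBV14 were lower in CD4 by log2 differences of -2.05 and -1.51, at 0.775% ± 0.329 against 3.35% ± 0.451 and at 3.44% ± 0.970 against 9.65% ± 1.00. Among segments higher in CD4, TRBV15 reached 5.80% ± 0.826 against 2.47% ± 0.192 (log2 difference 1.19), and TRBV1 4.80% ± 0.910 against 2.21% ± 0.911 (1.16). TRBV22, which the annotation lists as a pseudogene, held 1.07% ± 0.305 of CD4 and 0.269% ± 0.109 of CD8 reads (1.67). The groups did not overlap for any of these 7 segments, and in each all 6 pairs had the same direction.

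The 5 V segments known for superantigen recognition did not move together. TRBV26, TRBV15 and TRBV16 were higher in CD4 and TRBV12-1 and TRBV12-2 in CD8, with a median of 0.76 over the 5 against 0.11 over all 21 segments. TRBV16 averaged 11.4% ± 2.44 in CD4 and 6.60% ± 1.13 in CD8 (0.76), with overlapping groups. Their summed usage was 46.1% in CD4 and 24.5% in CD8, and 20.7% and 23.1% without TRBV26, a setting chosen after the data were seen. Over the other 4 the median was -0.54, and -0.20 with TRBV26, TRBV23 and TRBV29 left out of the total, with 2 higher in each lineage. The TRBV13 family, which is Vβ8 in the older names, went the other way in sum, with 14.3% in CD4 and 24.6% in CD8. TRBV13-3 and TRBV13-1 were lower in CD4, by log2 differences of -1.04 and -0.79, while TRBV13-2 did not pass (-0.31, limma adjusted p 0.0621). As a percentage of all reads, and with each listed clonotype counted once, all 3 passed as lower in CD4. TRBV4 and TRBV3 were the other segments that did not pass, with log2 differences of -0.08 and 0.11.

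**Figure D1:**
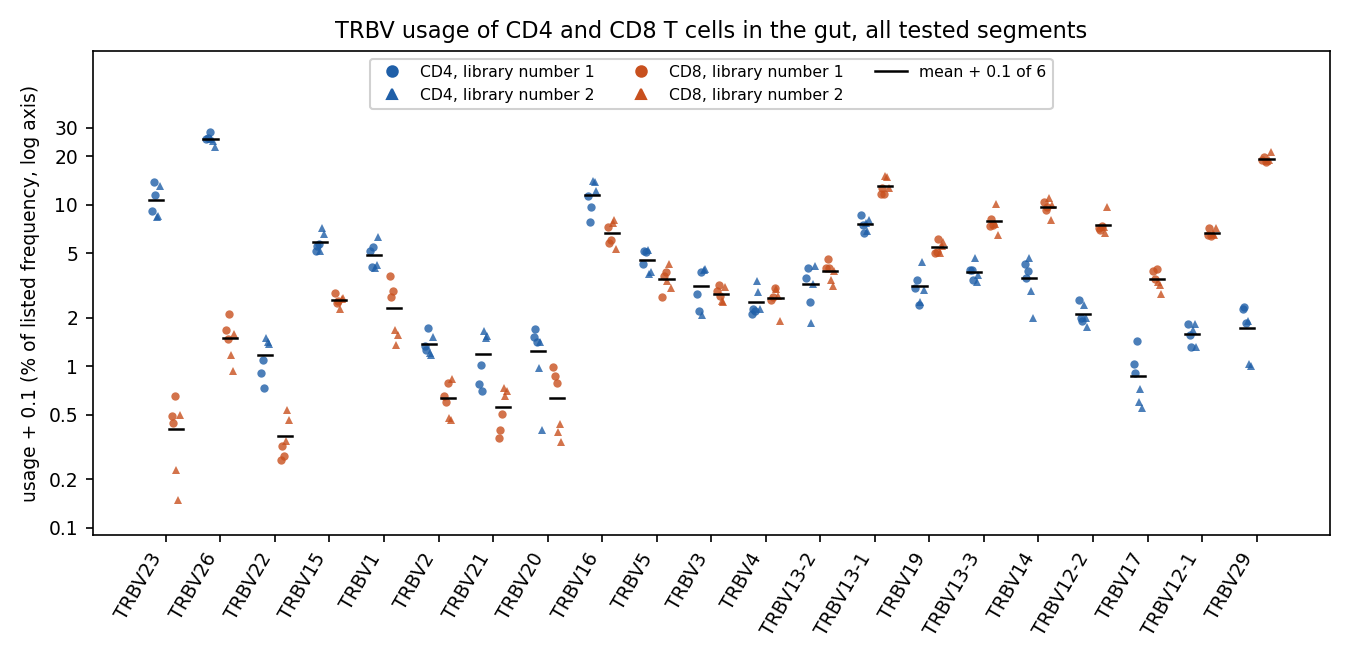
TCRB V segment usage in gut, as percent of listed reads plus 0.1 on a log axis, with 1 point per library (circles numbered 1, triangles numbered 2) and a line at the mean, for the 6 CD4 and the 6 CD8 libraries. TRBV26 sits at 22.6% to 28.0% in CD4 and at most 2.01% in CD8, and TRBV29 at 18.4% to 21.2% in CD8 and at most 2.24% in CD4.

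The high usage of TRBV26 in CD4 was spread over many clonotypes. A CD4 gut library listed between 784 and 8234 TRBV26 clonotypes, 22.9% to 30.6% of its clonotypes, and the most frequent held 0.299% to 2.39% of the TRBV26 reads. Over the 6 libraries, 15790 TRBV26 clonotypes were listed, of which 61 were in all 6 and 10160 in 1 gut library. TRBV23 in CD4 had 5062 clonotypes, of which 1 was in all 6 libraries. For TRBV29 in CD8 the numbers were 8405 and 184.

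TCRA V usage also differed between the lineages, led by TRAV16N toward CD8 and by the TRAV14 family, which is Vα2 in the older names, toward CD4. Of 41 segments tested, 35 passed (85.4%), 24 higher in CD4 and 11 higher in CD8, with a median log2 difference of 0.44. With TRAV16N left out of the total, 36 of 46 passed, 19 higher in CD4 and 17 higher in CD8, and the median was 0.09. The groups did not overlap for 25 of the 41 segments. TRAV16N (chr14:53351028-53351621, + strand) held 22.4% to 25.5% of listed reads in CD8, with a median of 23.9%, and 1.75% to 2.81% in CD4, with a median of 2.47%. The difference was -3.32 (SE 0.11, limma adjusted p 7.62e-15), with every CD8 library far above every CD4 library. In CD8, 6844 TRAV16N clonotypes were listed, 438 of them in all 6 gut libraries.

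All 6 tested members of the TRAV14 family were higher in CD4, with a median of 2.11, and together they held 17.4% of CD4 and 4.37% of CD8 reads. With TRAV16N left out of the total, 5 of the 6 passed, all higher in CD4. TRAV14N-3 held 4.32% to 5.95% of CD4 reads, with a median of 5.07%, and 0.572% to 0.855% of CD8 reads, with a median of 0.697% (log2 difference 2.74, SE 0.11, limma adjusted p 5.5e-14). TRAV14-3, at 2.13% ± 0.238 in CD4 and 0.205% ± 0.0565 in CD8, had the largest difference of the family, 2.89. TRAV14D-2 and TRAV14D-3-DV8 were higher in CD4 by 2.18 and 2.04. Mouse TRAV segments without a letter and with D or N belong to duplicated parts of the locus and can be close to identical, so how reads were split among such copies is uncertain. With copies merged to families, TRAV14 held 17.8% ± 0.878 of CD4 and 4.55% ± 0.237 of CD8 reads (1.94).

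Other TRAV families showed the same kind of split. All 3 TRAV4 segments (Vα11) were higher in CD4, including TRAV4N-4 at 2.22% ± 0.215 against 0.722% ± 0.109 (log2 difference 1.5003). Of 10 TRAV7 segments, 7 were higher in CD4 and 2 in CD8, and their sum was 28.0% in CD4 and 16.1% in CD8. TRAV7D-2 led them, at 7.86% ± 0.758 against 2.27% ± 0.112 (1.75). With TRAV16N left out, 4 TRAV7 segments passed as higher in CD4 and 2 as higher in CD8. TRAV21/DV12 was higher in CD4 by 1.53. Toward CD8, 3 of 4 TRAV12 segments passed and 0 were higher in CD4, with TRAV12N-3 at 1.93% ± 0.565 in CD4 and 7.93% ± 0.660 in CD8 (-2.02) and TRAV12-2 at 0.7002% ± 0.111 and 2.501% ± 0.438 (-1.70). All 3 TRAV3 segments were likewise higher in CD8. Of 5 TRAV6 segments, 1 was higher in CD4, 1 in CD8 and 3 did not pass. Their median of -0.01 turned to 0.24 with each listed clonotype counted once and to -0.36 without TRAV16N, where 1 was higher in CD4 and 3 in CD8. No TRAV9 segment reached the minimum usage on its own.

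**Figure D2:**
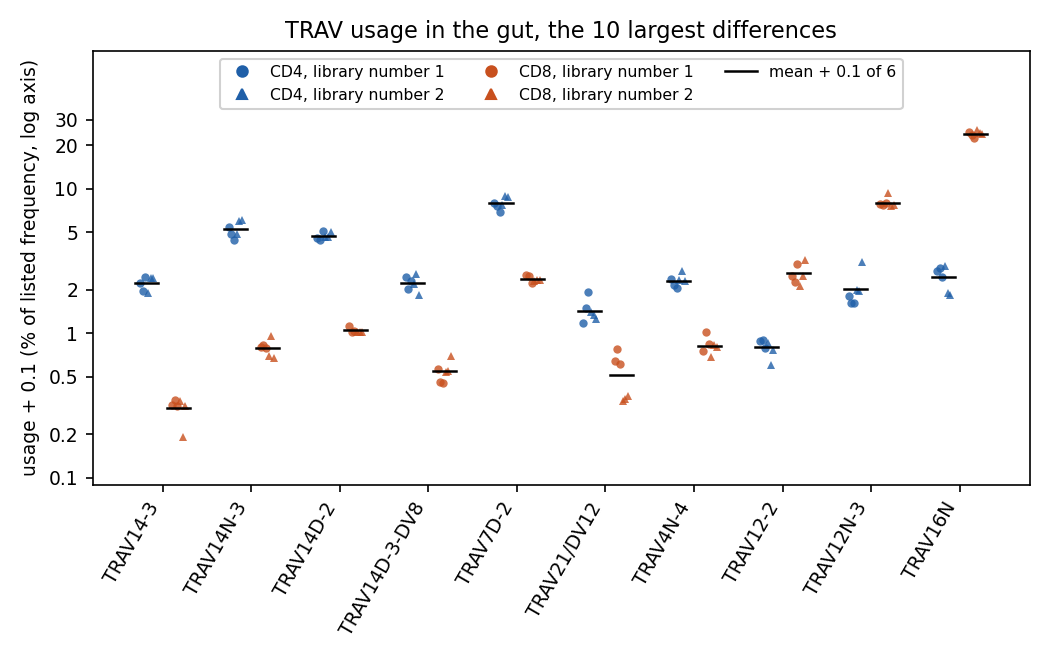
Usage of the 10 TCRA V segments with the largest differences in gut, as percent of listed reads plus 0.1 on a log axis, with 1 point per library (circles numbered 1, triangles numbered 2) and a line at the mean, for the 6 CD4 and the 6 CD8 libraries. TRAV16N lies at 22.4% to 25.5% in CD8 and at most 2.81% in CD4, while TRAV14N-3 lies at 4.32% to 5.95% in CD4 and at most 0.855% in CD8.

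J usage differed by less than V usage. Of 40 TRAJ segments, 33 passed (82.5%), 19 higher in CD4 and 14 in CD8 (median 0.20). With each listed clonotype counted once, 34 passed, 17 in each direction, and the median was -0.02. TRAJ47 had the largest difference, with 0.539% to 0.717% of CD4 reads (median 0.648%) and 1.67% to 1.97% of CD8 reads (median 1.83%), without overlap (-1.40, SE 0.10, limma adjusted p 2.33e-11). TRAJ30, TRAJ26, TRAJ22 and TRAJ45 were also higher in CD8, by log2 differences from -1.01 to -0.89. TRAJ22 was the most used of these, at 4.74% ± 0.468 in CD4 and 8.96% ± 0.579 in CD8. TRAJ56 was higher in CD4, at 2.56% ± 0.642 against 1.27% ± 0.230 (0.94). Segments numbered above the median of 31.5, which lie nearer to the V segments, had 13 higher in CD4 and 6 in CD8 of 20, and those below it 6 and 8 of 20.

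Among 12 TRBJ segments, 8 passed (66.7%), 6 higher in CD4 and 2 in CD8 (median 0.14). As percentages of all reads, 5 were higher in CD4 and 3 in CD8. TRBJ1-3 was higher in CD4, at 7.71% ± 0.577 against 3.83% ± 0.214 (0.99, SE 0.06, limma adjusted p 1.99e-12), as was TRBJ1-4, at 8.08% ± 0.447 against 4.74% ± 0.340 (0.76). TRBJ2-1 and TRBJ2-7 were higher in CD8, at 8.76% ± 0.849 against 15.8% ± 0.626 (-0.85) and at 16.9% ± 1.44 against 25.4% ± 2.14 (-0.59). TRBJ2-3 and TRBJ2-4 were higher in CD4, by 0.53 and 0.41. Of 6 TRBJ1 segments 2 were higher in CD4 and 4 did not pass, and of 6 TRBJ2 segments 4 were higher in CD4 and 2 in CD8.

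None of the 27 single values tested over both chains, which cover CDR3 features, groups of segments, diversity and clonality, passed after adjustment, while 15 of them had the same sign in all 6 pairs. With 6 pairs the exact two-sided permutation test (64 sign arrangements) cannot give less than p = 0.03125, and these 15 values at that limit had an adjusted p of 0.05625. Without pairing, over all arrangements of the 12 libraries, 13 of these 15 passed the exact permutation test, all but the mean TCRB length and the TCRA internal cysteine. That form ignores pair, genotype and replicate number, so it does not replace the paired test. Only CDR3 that ran from a cysteine to a phenylalanine or tryptophan were used for these features, which leaves out 2.55% to 3.69% of TCRA reads, 24.5% to 28.8% of CD4 TCRB reads and 1.68% to 2.54% of CD8 TCRB reads. TRBV26 made up 92.5% to 97.4% of the reads left out in CD4 TCRB, so the TCRB length, charge, hydropathy, doublet and cysteine values below describe repertoires without TRBV26. The shares of TRBJ2 and TRBD2 were taken over all listed reads, TRBV26 included.

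The mean TCRA CDR3 was shorter in CD4, at 13.3 to 13.4 residues, than in CD8, at 13.5 to 13.7 residues, with no overlap and a mean difference of -0.201 residues (6 of 6 pairs, exact permutation p = 0.03125, adjusted 0.05625, and adjusted 0.00584 without pairing). The difference was -0.116 residues with each listed clonotype counted once and -0.0757 without clonotypes listed in both tables. CDR3 of 13 residues held 35.1% ± 1.65 of CD4 and 23.8% ± 1.00 of CD8 reads. The mean TCRB CDR3 was longer in CD4, at 13.6 ± 0.142 residues against 13.4 ± 0.142, in 6 of 6 pairs (exact permutation adjusted p 0.05625, and 0.0668 without pairing). Its mean difference was 0.220 residues, which became 0.0856 with each listed clonotype counted once and 5.20 with the deposited CDR3 of every form, the long TRBV26 CDR3 included. The spread of lengths was narrower in CD4 for both chains, with an SD of 1.18 against 1.44 residues for TCRA and 1.21 against 1.43 for TCRB, in 6 of 6 pairs each. With the deposited CDR3 of every form the TCRB difference in SD turned to 6.21 residues, wider in CD4.

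The net charge of the CDR3 was more positive in CD4 in 6 of 6 pairs of both chains. For TCRA it was 0.808 ± 0.0238 in CD4 and 0.605 ± 0.0256 in CD8, and for TCRB -0.674 ± 0.0445 and -0.815 ± 0.0385, without overlap. The TCRA difference was present inside V segments too: CD4 was higher in all 6 pairs for 29 of 41 V segments, and CD8 in all 6 pairs for 0. For TCRA length, 9 of the 41 V segments were longer in CD4 in all 6 pairs and 4 longer in CD8, with a median difference of 0.0849 residues toward CD4 over the 41, the opposite of the pooled mean. For TCRB, charge was higher in CD4 in all 6 pairs for 7 of 20 V segments and higher in CD8 for 1.

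The centre of the TCRB CDR3 was less hydrophobic in CD4, with a mean Kyte-Doolittle hydropathy of -1.37 ± 0.0204 against -1.196 ± 0.0107 in CD8 (6 of 6 pairs, no overlap). For TCRA it was -1.557 ± 0.0285 in CD4 and -1.581 ± 0.0166 in CD8, higher in CD4 in 5 of 6 pairs, with overlapping groups and an adjusted p of 0.141 by the exact permutation test. A hydrophobic doublet at the 2 central residues was carried by 0.417% ± 0.263 of CD4 and 1.02% ± 0.323 of CD8 TCRB reads, and by 0.110% ± 0.0399 and 0.298% ± 0.0996 of TCRA reads, lower in CD4 in 6 of 6 pairs each. An internal cysteine was carried by 6.57% ± 1.18 of CD4 and 2.28% ± 0.941 of CD8 TCRB reads, and TRBV1 held 98.7% to 100% of those reads in CD4 and 97.1% to 99.4% in CD8. When the CDR3 of TRBV26 was read from its inner cysteine and included, the direction of each of these TCRB features was the same, with a length difference of 0.176 residues and a charge difference of 0.201. When the deposited CDR3 of all lengths and ends were used, the charge difference turned to -0.53 and the hydropathy difference to 0.13.

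TRBJ2 was used in 62.6% ± 0.737 of CD4 and 69.4% ± 1.2002 of CD8 reads, lower in CD4 in 6 of 6 pairs. TRBD2 made up 45.0% ± 0.967 of the assigned D segments in CD4 and 41.0% ± 1.52 in CD8. Without TRBV26 and TRBV23 that TRBD2 difference turned from 3.97 to -4.95 percentage points. TRAV1-TRAJ33 is the segment pairing of the invariant alpha chain of mucosal-associated invariant T cells. Counted with any CDR3, it held 0.0221% ± 0.00994 of CD8 reads and at most 0.00419% of CD4 reads, lower in CD4 in 6 of 6 pairs. TRAV11-TRAJ18, the segment pairing of the invariant chain of natural killer T cells and also counted with any CDR3, held 0.0298% ± 0.0160 in CD4 and 0.0454% ± 0.0524 in CD8 (exact permutation p = 0.5, adjusted 0.54).

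**Figure D3:**
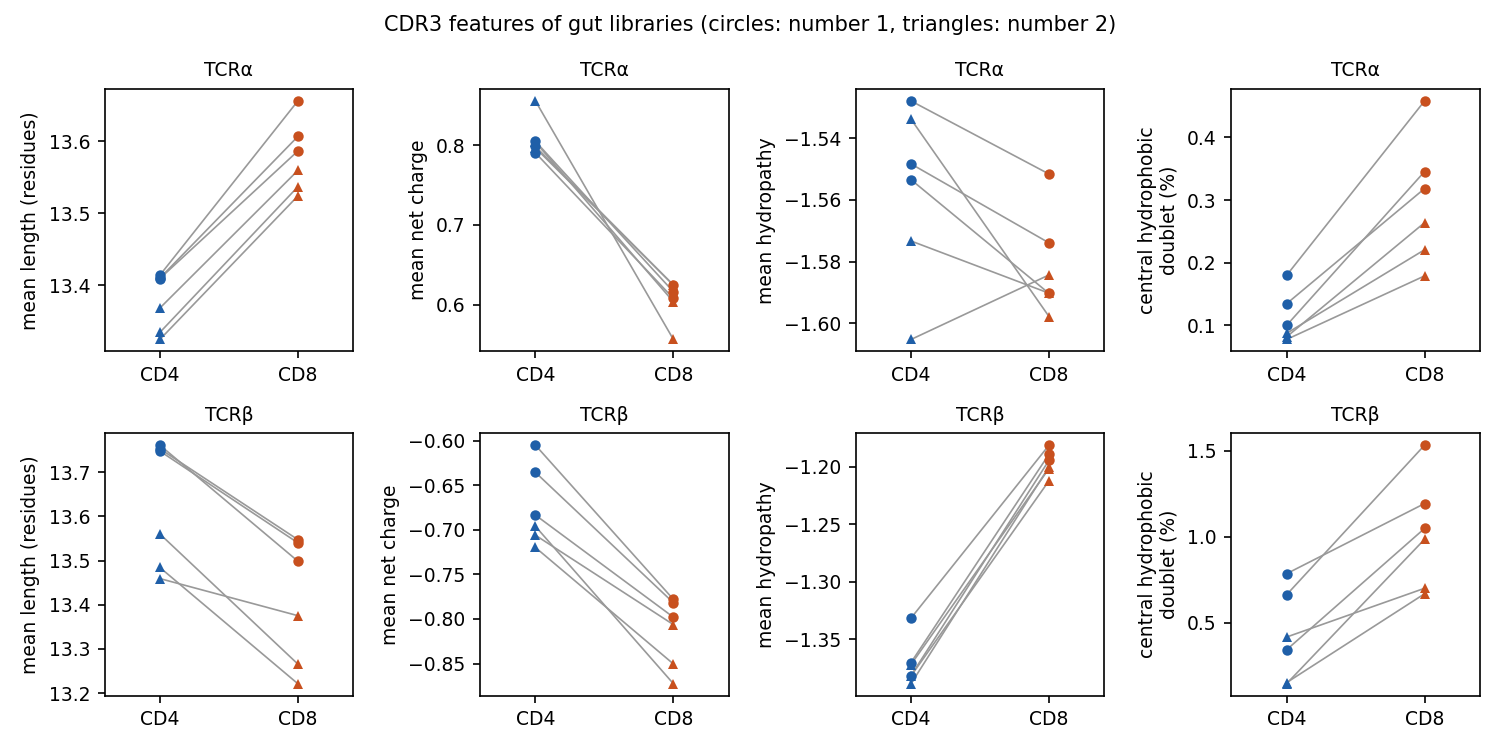
Mean CDR3 length, net charge, hydropathy of the centre and percent with a central hydrophobic doublet in the 6 gut pairs of TCRA and TCRB, with a line joining the CD4 and the CD8 library of each pair. All 6 lines slope the same way in the panels of TCRA length (13.3 to 13.4 residues in CD4 and 13.5 to 13.7 in CD8), charge and TCRB hydropathy.

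None of the 5 measures of diversity and clonality passed the test for either chain. The Shannon effective number of clonotypes, which is the exponential of the entropy and falls as few clonotypes dominate, was 6423 ± 3361 in CD4 and 6430 ± 2196 in CD8 for TCRA (log2 difference -0.12, exact permutation p = 0.375, adjusted 0.422). For TCRB it was 6857 ± 5431 and 7611 ± 4016 (-0.50, p = 0.1875, adjusted 0.266, exact permutation). Within the libraries numbered 1 the TCRB difference was -0.01, and within those numbered 2, which list a smaller share of their reads, it was -0.99. With 1 pair left out the TCRB difference ran from -0.69 to -0.25, the latter without STAT3koPD-1ko replicate 2. For TCRA it ran from -0.21 without WT replicate 1 to -0.03 without STAT3ko replicate 2, and was -0.04 without STAT3koPD-1ko replicate 2. Its sign turned with the number, at 0.12 among libraries numbered 1 and -0.36 among those numbered 2. The 10 most frequent clonotypes held 1.899% to 4.86% of listed TCRA reads in CD4 and 2.27% to 4.89% in CD8, with adjusted p 0.367 by the exact permutation test. Restricted to clonotypes listed in at least 2 of the 6 gut libraries, 3 of the measures passed by the exact permutation test, each lower in CD4: TCRA clonality by -0.11, and the Simpson effective number and the number of listed clonotypes of TCRB by -0.53 and -0.72 (log2 differences, adjusted p 0.0469 each). Their unadjusted p was 0.03125, the smallest that 6 pairs can give and the same as for the 15 values above. The adjusted p fell below the threshold because more of the 27 values sat at that limit, so these measures stand out no more than those 15.

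Few clonotypes were listed in both lineages. Of the clonotypes listed in gut, 6214 of TCRA were in both tables, 12.03% of those of CD4 and 11.8% of those of CD8. For TCRB 4364 were in both, 6.89% and 6.19%. Between the CD4 and the CD8 library of a pair, 579 to 2131 TCRA clonotypes were shared, holding 8.70% to 10.3% of CD4 and 8.03% to 17.5% of CD8 reads, and 229 to 1033 TCRB clonotypes, holding 3.31% to 4.73% and 3.03% to 4.11%. Most of the shared clonotypes of a pair were also listed in a spleen library taken before HCT, 86.7% to 92.2% for TCRA and 78.0% to 84.3% for TCRB. Of all clonotypes listed in a gut library, 55.1% to 70.6% of CD4 and 50.8% to 59.3% of CD8 were for TCRA, and 41.2% to 51.8% and 39.96% to 46.4% for TCRB, though a shared clonotype can be found in the spleen libraries of both tables. In all 6 pairs, shared clonotypes had fewer bases between V and J than the other CD4 clonotypes of the library, 1.43 to 1.796 against 2.03 to 2.76 for TCRA and 5.99 to 6.58 against 7.39 to 8.66 for TCRB. These bases were counted only in CDR3 that run from a cysteine to a phenylalanine or tryptophan, which leaves out nearly all of TRBV26. TRAV16N was the most used V segment among shared TCRA clonotypes, at 20.8% of them, and TRBV26 among those of TCRB, at 23.0%. Over all listed gut clonotypes, counted in the same way, TRAV16N was 2.95% in CD4 and 14.6% in CD8, and TRBV26 was 28.0% and 2.83%.

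Whether CD4 and CD8 T cells of the same pair shared more than those of different pairs was asked with an overlap in which each clonotype adds whichever of its CD4 and CD8 frequencies is smaller. For TCRA the overlap averaged 3.86% within pairs (range 2.68% to 4.82%) and 3.65% between other combinations (exact one-sided permutation p = 0.00694 over 720 arrangements, adjusted 0.00694). For TCRB it averaged 1.501% (1.14% to 1.73%) against 1.32% (p = 0.00278, adjusted 0.00556, exact permutation). The libraries numbered 1 and 2 differ in the share of reads listed, and with arrangements kept within a number neither chain passed, with TCRA 3.74% for other combinations (p = 0.139) and TCRB 1.37% (p = 0.0556, adjusted 0.111), by the exact permutation test over 36 arrangements, whose smallest p is 0.0278. Among libraries numbered 1 the TCRA overlap was 4.43% within pairs and 4.49% otherwise, and the TCRB overlap 1.66% and 1.65%. Among those numbered 2 it was 3.29% and 2.99% for TCRA and 1.34% and 1.09% for TCRB. Without clonotypes listed before HCT the overlap was 0.214% within pairs and 0.163% otherwise for TCRA, and 0.172% and 0.128% for TCRB. Over the 720 arrangements, which mix the numbers, both passed (exact permutation adjusted p 0.00833 and 0.00972). This setting was not run within a number.

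**Figure D4:**
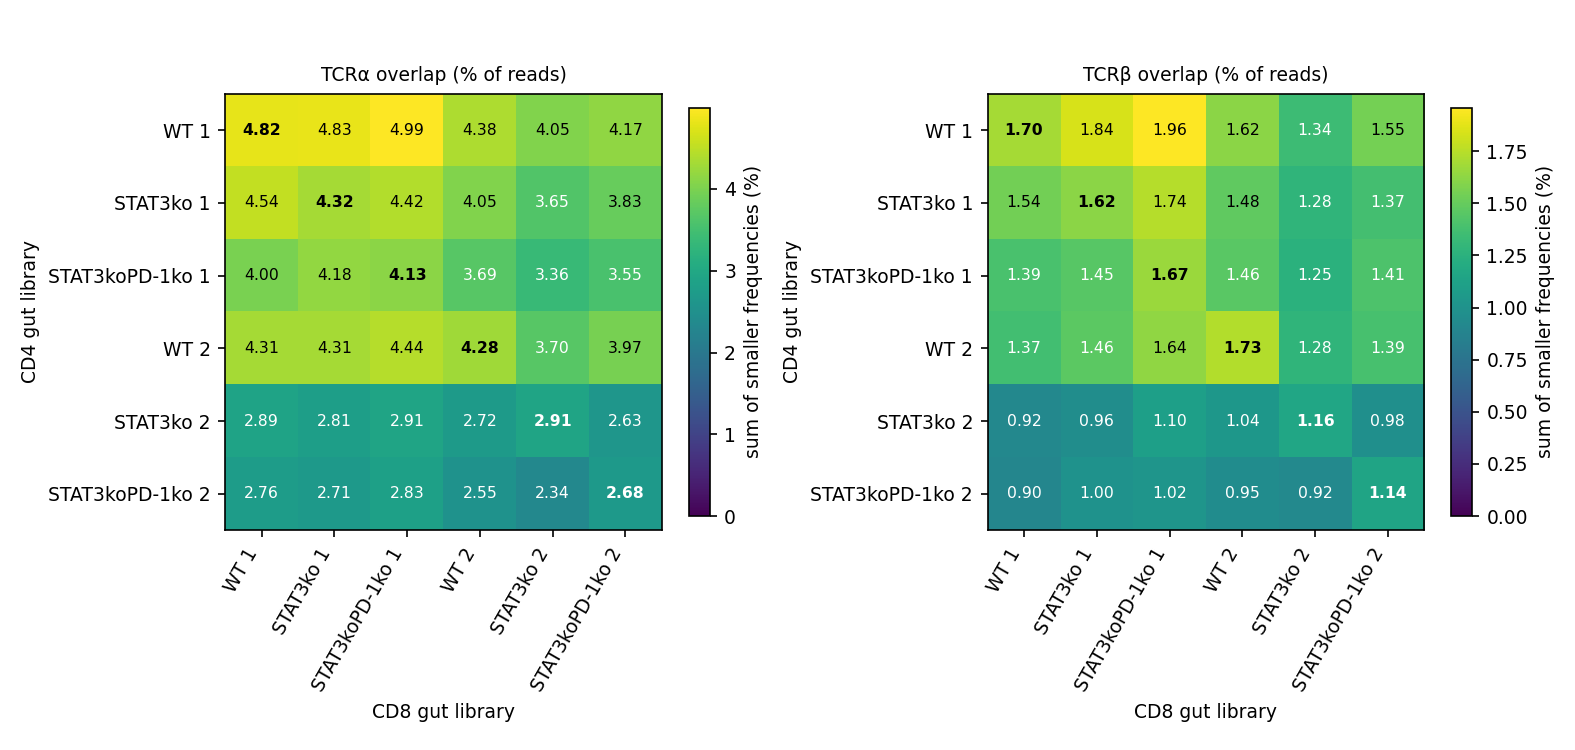
Overlap of each CD4 gut library (rows) with each CD8 gut library (columns), as the summed smaller frequency in percent of reads, for TCRA and TCRB, with colour and printed value giving the overlap. Combinations on the diagonal are pairs of the same genotype and number, which average 3.86% for TCRA and 1.501% for TCRB against 3.65% and 1.32% off it.

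In all 6 pairs, 104 TCRA and 13 TCRB clonotypes were shared, out of 4260 and 2579 shared in at least 1 pair. Most of the 13 TCRB records had a CDR3 of unusual length. They include TRBV22 records of 39 to 41 residues, TRBV26 records of 33 and 35, and TRBV21 and TRBV8 records of 6. The TCRA and TCRB clonotypes with the largest shared frequency are shown as deposited in the CD4 table, with the bases between V and J in capitals. Of these only the TRBV21 record has the same representative sequence in CD8. Among all clonotypes shared in a pair, 43.9% to 50.9% of TCRA and 27.2% to 36.9% of TCRB had the same representative sequence in both lineages.
TRAV7-5 TRAJ18: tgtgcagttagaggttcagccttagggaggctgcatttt
TRAV7-5 TRAJ22: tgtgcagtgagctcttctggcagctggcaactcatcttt
TRAV19 TRAJ56: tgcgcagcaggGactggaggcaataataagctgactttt
TRBV21 TRBJ2-1: tatgctgagcagttcttc
TRBV12-1 TRBJ2-4: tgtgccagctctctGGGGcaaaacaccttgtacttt
TRBV14 TRBJ2-7: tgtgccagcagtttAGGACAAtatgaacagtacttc
As deposited for CD4, the 3 TRAV clonotypes had 0 or 1 base between V and J. The TRBV21 TRBJ2-1 record is 6 residues long and lacks the conserved cysteine at its start. It held 0.471% to 0.760% of CD4 reads, with a median of 0.707%, and 0.222% to 0.323% of CD8 reads, with a median of 0.315%, and it alone gave 0.293 of the 1.501 percentage points of TCRB overlap. With CDR3 that lack the usual ends left out, the TCRB overlap was 0.973% within pairs and 0.807% otherwise (exact permutation adjusted p 0.00833). That p is over the 720 arrangements that mix the library numbers, and the setting was not run within a number. The TRBV12-1 TRBJ2-4 clonotype held at most 0.0396% of CD4 and 0.0377% of CD8 reads.

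The clonotypes shared in all 6 pairs were not equally frequent in both lineages. Of the 104 TCRA clonotypes, 18 differed (17.3%), 10 higher in CD4 and 8 in CD8, by limma on log2 frequency, with a median of 0.05. That number was 9 without STAT3koPD-1ko replicate 1 and 10 without STAT3ko replicate 1 or without WT replicate 2. Over the 458 clonotypes listed in at least 10 of the 12 gut libraries, 32 were higher in CD4 and 82 in CD8, and the median was -0.47. Of the 13 of TCRB, 2 differed (15.4%), both higher in CD4. The 3 most CD8-sided clonotypes all used TRAV16N. Of the other TRAV16N clonotypes among the 104, those with TRAJ15 and TRAJ31 were also higher in CD8. Those with TRAJ7, TRAJ12, TRAJ21, TRAJ40, TRAJ43 and TRAJ48 did not pass. As deposited for CD8, all 3 had no base between V and J, and that with TRAJ22 has another representative sequence in CD4.
TRAV16N TRAJ22: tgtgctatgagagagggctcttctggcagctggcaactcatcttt
TRAV16N TRAJ53: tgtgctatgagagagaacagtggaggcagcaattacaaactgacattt
TRAV16N TRAJ49: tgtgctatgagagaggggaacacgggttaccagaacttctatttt
This TRAV16N TRAJ22 clonotype is not the one printed with the leading segments, and it held 0.145% to 0.324% of CD8 reads, with a median of 0.217%, and 0.000173% to 0.0821% of CD4 reads, with a median of 0.00225% (log2 difference -6.67, SE 0.95, limma adjusted p 0.000272). The TRAJ53 and TRAJ49 clonotypes differed by -4.46 and -3.82, and for all 3 every pair was higher in CD8.

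Toward CD4 the 3 clonotypes with the largest differences used TRAV7D-2, TRAV5-4 and TRAV13-4-DV7. They are printed with TRBV5 TRBJ2-5 as deposited for CD4. The TRAV5-4 and TRBV5 clonotypes have another representative sequence in CD8.
TRAV7D-2 TRAJ31: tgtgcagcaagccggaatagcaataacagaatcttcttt
TRAV5-4 TRAJ57: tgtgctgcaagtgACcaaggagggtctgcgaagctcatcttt
TRAV13-4-DV7 TRAJ56: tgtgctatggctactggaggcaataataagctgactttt
TRBV5 TRBJ2-5: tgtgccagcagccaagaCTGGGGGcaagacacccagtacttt
The TRAV7D-2 TRAJ31 clonotype held 0.0916% to 0.174% of CD4 reads, with a median of 0.151%, and 0.00095% to 0.0203% of CD8 reads, with a median of 0.0113% (log2 difference 4.25). The TRAV5-4 and TRAV13-4-DV7 clonotypes differed by 3.26 and 3.25, and the latter did not pass without WT replicate 2 (2.56, limma adjusted p 0.0588). Of TCRB, TRBV5 TRBJ2-5 was higher in CD4 by 2.39 (limma adjusted p 0.0202) and TRBV21 TRBJ2-1 by 1.14 (limma adjusted p 0.0262). The number of TCRB clonotypes called was 0 to 3 when 1 pair was left out, with 0 called without WT replicate 1 or WT replicate 2 and 1 without STAT3ko replicate 1 or STAT3koPD-1ko replicate 1. The TRBV21 clonotype passed only without STAT3koPD-1ko replicate 1 (limma adjusted p 0.0171) and had an adjusted p of 0.0539 to 0.132 without each of the other pairs. The TRBV5 clonotype did not pass without WT replicate 1, WT replicate 2 or STAT3koPD-1ko replicate 1 (limma adjusted p 0.0507 to 0.0591). Among the 89 TCRB clonotypes listed in at least 10 gut libraries neither passed (limma adjusted p 0.133 and 0.314), and the 1 call there was another clonotype.

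The contrast between CD4 and CD8 in gut was next set against that in liver, to ask which part of it differed between the tissues. For TCRA V segments, 1 of 41 passed this test (2.44%), TRAV8D-1, whose CD4 to CD8 difference was lower in gut by 0.85 (limma adjusted p 0.0137). That call was lost without gut STAT3ko replicate 1, gut STAT3koPD-1ko replicate 2 or liver STAT3ko replicate 1, each of which left 0 calls. For TCRB V segments, 15 of 21 passed (71.4%). The CD4 minus CD8 difference was higher in gut than in liver for 5 of them and lower for 10, whichever lineage the segment itself leaned to. With each listed clonotype counted once 5 of 21 passed, 1 higher and 4 lower in gut. With TRBV26, TRBV23 and TRBV29 left out of the total, 5 of 18 passed, 4 higher and 1 lower in gut. Listed clonotypes held 85.6% to 96.3% of TCRB reads in liver, but 47.8% to 58.0% in gut libraries numbered 2. Usage here is a percentage of unlike shares of the reads, and the contrast was not run on percentages of all reads.

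TRBV26 averaged 25.4% ± 1.76 of CD4 reads in gut and 9.09% ± 1.83 in liver (n = 6 each), and 4.45% to 5.68% in the 3 spleen libraries taken before HCT. In CD8 it averaged 1.396% ± 0.407 in gut and 0.930% ± 0.107 in liver, and 0.772% to 1.34% in spleen. The CD4 to CD8 difference was larger in gut than in liver by 1.00 on the log2 scale (limma adjusted p 1.80e-05). With each listed clonotype counted once this was -0.01 (limma adjusted p 0.928). TRBV23 had the same order in CD4, at 10.6% ± 2.39 in gut, 3.70% ± 0.7497 in liver and 1.53% to 2.06% in spleen, and its CD4 to CD8 difference was larger in gut by 1.46 (limma adjusted p 2.31e-06), or by 0.40 with clonotypes counted once.

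TRBV14 went the other way. It held 3.44% ± 0.970 of CD4 reads in gut and 6.43% ± 0.690 in liver, and 5.82% to 9.46% in spleen, while in CD8 it held 9.65% ± 1.00, 8.06% ± 1.26 and 5.50% to 8.84%. Its difference lay further toward CD8 in gut by -1.19 (limma adjusted p 8.64e-06). TRBV29 and TRBV17 also lay further toward CD8 in gut, by -0.77 and -0.46, and TRBV12-1 and TRBV12-2 less far toward CD8, by 0.36 and 0.46. TRBV16 lay lower in gut by -0.65 (limma adjusted p 0.0012). Without TRBV26, TRBV23 and TRBV29 in the total, the difference of TRBV17 was -0.05 and no longer passed. At that total only 1 segment passed as lower in gut, so TRBV14 and TRBV16 did not both keep that call. TRBV17 and TRBV12-1 also missed the threshold at a pseudocount of 0.5%, and without any 1 of 4 and of 8 of the 12 pairs. With each listed clonotype counted once, TRBV29, TRBV12-1 and TRBV12-2 did not pass, at -0.19, 0.02 and 0.07.

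**Figure D5:**
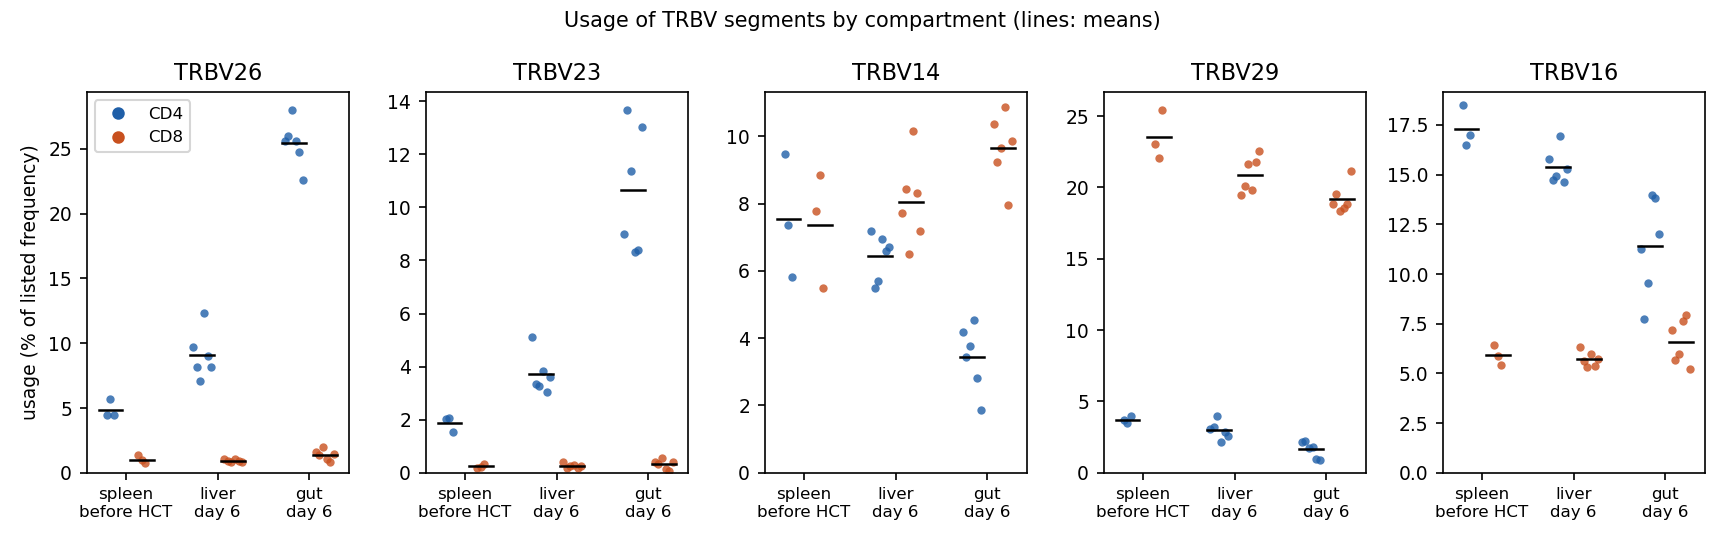
Usage of TRBV26, TRBV23, TRBV14, TRBV29 and TRBV16, as percent of listed reads on linear axes that start at 0, in spleen before HCT (3 libraries) and in liver and gut on day 6 (6 libraries each), for CD4 and CD8, with 1 point per library and a line at the mean. TRBV26 in CD4 goes from 4.45% to 5.68% in spleen through a mean of 9.09% in liver to 25.4% in gut, and in CD8 its mean is 0.930% in liver and 1.396% in gut.

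Several CDR3 features went the same way in liver and before HCT. TCRA length was lower in CD4 in 6 of 6 liver and 3 of 3 spleen pairs, and TCRA and TCRB charge higher in 6 of 6 and 3 of 3. Hydropathy and the SD of length of TCRB were lower in CD4 in 6 of 6 and 3 of 3 pairs, and TRBJ2 likewise. The share of TRBD2 went otherwise and was higher in CD4 in 6 of 6 gut pairs but in 2 of 6 liver and 0 of 3 spleen pairs. Whether these differences changed between tissues was not tested.

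The main differences held in the pairs of every donor genotype. TRBV26 was higher in CD4 by 3.93 and 4.44 in the WT pairs, by 4.15 and 4.73 in STAT3ko and by 3.74 and 3.84 in STAT3koPD-1ko. TRBV23 was higher by 4.21 and 5.20, by 4.95 and 5.84, and by 4.13 and 4.71 in the same order. TRBV29 was lower in CD4 by -3.29 and -3.07, by -4.20 and -3.07, and by -4.40 and -3.31. TRAV16N was lower by -3.19 and -3.13, by -3.68 and -3.06, and by -3.68 and -3.21. TRAV14N-3 was higher by 2.77 and 2.79, by 2.56 and 2.65, and by 2.47 and 3.17. With 2 pairs per genotype, differences between genotypes were not tested.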

How the data were processed

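TCRA and TCRB transcripts of sorted CD4 and CD8 T cells were amplified by the authors with a commercial template-switching kit and sequenced as paired reads. Clonotypes were called with MiXCR and joined with VDJtools into 4 deposited tables, 1 per chain and cell type. The deposited unit is the fraction that a clonotype holds of its library's reads (0 to 1), formed before the join, which kept clonotypes found in at least 2 libraries. The join counted up to 18 libraries, and the 15 with a column were used. No read counts are given, so depth is unknown and no counting interval can be given.

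Libraries were grouped by label and gut CD4 and CD8 libraries of the same genotype and number were paired. Whether a pair came from 1 pool of recipients follows from the protocol but is not stated for single samples, and the 2 numbers may be technical batches, so p-values measure the spread between these samples. Across pairs, the correlation of CD4 and CD8 deviations in V usage ran from -0.04 to 0.43 for TCRA and from 0.31 to 0.63 for TCRB. Usage on the scale log2(percent of listed fractions + 0.1) was fitted with limma 3.58.1 (R 4.3.3), with pair as a block, for segments of mean usage at least 0.5%, and clonotypes listed in all 12 gut libraries on log2 frequency. Gut and liver were compared on the difference per pair with genotype in the fit. Single values were tested by exact permutation in Python 3.11.15. The scripts were tested on simulated data.

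Named are up to 10 V and 6 J segments per chain with the largest differences among those with adjusted p below 0.05, up to 3 clonotypes per side and chain, and the 3 most shared clonotypes per chain. The members, lists and tests were chosen with earlier results of these data known. Segment positions are from GENCODE, build mm10, which the labels also name, and all 32 named segments were found. Totals without TRAV16N or without TRBV26, TRBV23 and TRBV29, single numbers, merged families, canonical CDR3 and the inner cysteine of TRBV26 were alternatives chosen after seeing the data.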

Additional observations from a re-analysis of the deposited data

Results flagged for a closer look

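Of the 61 values tested (32 named segments, 27 single values such as CDR3 features and diversity, and the overlap of each of the 2 chains), 7 had 1 gut pair apart from the other 5 by the gap test at the 95% level, which marks about 1 in 20 groups by chance. In 6 of these the pair was STAT3koPD-1ko replicate 2. Its log2 difference between CD4 and CD8 was -1.29 for TRAV12N-3, where the lowest pair was at -2.28, and 1.41 for TRAV14D-3-DV8, where the highest was at 2.33. It was -1.36 for TRAJ26, -1.43 for TRAJ45 and -2.33 for TRBV14, whose highest pairs were at -0.77, -0.64 and -1.24. The TCRA net charge difference was 0.300 in this pair, and the lowest was 0.172. For the percentage of TRBJ2 the pair apart was WT replicate 1, at -5.01 percentage points, with the lowest at -7.59. All 7 differences kept their direction in every pair.

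The difference between CD4 and CD8 in gut was not that of liver for 7 of the 10 named TRBV segments, by the limma test of the difference itself, a share close to the 71.4% (15 of 21) over all TRBV segments tested. Gut minus liver was 1.46 on the log2 scale for TRBV23, 1.00 for TRBV26, -0.77 for TRBV29, -1.19 for TRBV14, -0.46 for TRBV17, 0.36 for TRBV12-1 and 0.46 for TRBV12-2. Without TRBV26, TRBV23 and TRBV29 in the total the values were -0.75 for TRBV14, -0.05 for TRBV17, 0.80 for TRBV12-1 and 0.91 for TRBV12-2.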

How the results depend on the processing

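The number of usage calls stayed within 1.5 times the reported one under the other scalings, pseudocounts and left-out pairs. The exceptions were 58 TCRA V calls of 109 with no minimum usage, and 12 of 15 with segments merged to families. In gut against liver, TCRA had 0 calls with clonotypes counted once and 0 to 1 with a pair left out, and TCRB had 5 with clonotypes counted once and 5 without TRBV26, TRBV23 and TRBV29. Without the replicate block, the TCRA length difference of -0.20 residues had an adjusted p of 0.00584 by the exact permutation test, and TCRB clonotypes shared by all pairs had 4 calls. The usage calls were 35, 31, 18 and 8 for TCRA V, TCRA J, TCRB V and TCRB J. In TCRA 3 of the 6 CD4 libraries and in TCRB 5 correlated best with the CD8 library of their own pair. Clonotypes listed in at least 10 of the 12 gut libraries gave 114 TCRA calls of 458 (32 higher in CD4, 82 in CD8) and 1 TCRB call of 89, and leaving out a pair gave 9 to 15 and 0 to 3.

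The excess overlap of pairs was 0.117 percentage points for TCRA and 0.128 for TCRB with arrangements within a number, -0.0689 and 0.00759 among libraries numbered 1, and 0.303 and 0.249 among those numbered 2. The cause was not tested. The TCRA diversity difference was 0.0375 by the Simpson number, and its sign turned with a pair left out (-0.0332 to 0.138), as did that of TCRB clonality (-0.113 to 0.0137). With the deposited CDR3 of every form, the TCRB differences were 6.21 for the SD of length, -0.53 for charge and 0.13 for hydropathy, and the long TRBV26 CDR3 enter by construction. Signs also turned for TRBV26 in gut against liver (-0.00762) and TRAV11-TRAJ18 (0.00149) with clonotypes counted once, TCRA hydropathy without clonotypes of both tables (-0.0290) and TRBD2 without TRBV26 and TRBV23 (-4.95). Depth is unknown, and diversity and overlap rest on the listed share of reads, which was lower in libraries numbered 2 for both chains.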
